A study of Mus musculus with 6 samples.

Results

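Autophagy is the process by which a cell encloses part of its own content in a double membrane, the autophagosome, and delivers it to the lysosome for breakdown. A kinase complex around ULK1 starts the process, a lipid kinase complex around VPS34 marks the membrane, lipid carriers make it grow, and ubiquitin-like enzymes attach proteins of the ATG8 family (the LC3 and GABARAP proteins) to it. Cargo receptors such as p62, the product of Sqstm1, tie ubiquitin-tagged cargo to ATG8 proteins, and huntingtin, the product of Htt, has been described as a scaffold that binds p62 and ULK1 in selective autophagy.

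The genes described here are 37 genes of this machinery, chosen by name for their roles. They comprise 4 genes of the ULK1 kinase complex, 6 of the VPS34 complex, 6 of membrane supply, 11 of the conjugation and processing of ATG8 proteins, 5 ATG8 genes and 5 cargo receptors. All 37 were found among the 23412 lines of the deposited table, and all 37 were among the 14276 genes with a mean of at least 5 normalized counts over the 6 libraries, which were the genes tested. They lay above most tested genes in level, with means over the 6 libraries from 9.77 (Atg10) to 818 (Nbr1) and a median of 130 normalized counts, against a median of 59.0 over all tested genes.

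The study sequenced RNA of undifferentiated mouse embryonic stem cells (mESCs) of strain 129Sv, with 3 libraries from the wild type line R1 and 3 from the line HN, labelled Htt-/-, in which both copies of Htt lack the promoter and exon 1. Both lines grew without feeder cells in medium with leukemia inhibitory factor and inhibitors of FGF and VEGF receptors, MEK and GSK3 (SU5402, PD184352 and CHIR99021). HN is a single line, so the effect of Htt and any other difference between the lines cannot be told apart. Replicate 1 of each line was collected on 17 February, replicate 2 on 20 February and replicate 3 on 2 March, so that replicates with the same number form a pair, and p-values measure the spread between these batches of 2 lines.

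The libraries held 1640391 to 3866717 reads assigned to genes. Htt itself stood at 229.9, 257 and 199 normalized counts in R1 and at 18.3, 58.1 and 54.2 in HN (log2 fold change -2.52, SE 0.37, adjusted p = 0.0141, limma). The lines did not overlap, and the counts in HN can come from the exons of Htt that were not deleted. Summed levels of 8 genes of undifferentiated mESCs (Pou5f1, Nanog, Sox2, Zfp42, Esrrb, Klf4, Dppa5a and Tdgf1) ranged from 12129 to 17914 in R1 and from 12845 to 17304 in HN. Of markers of other cells, Tubb3 and Eomes had means of 159 and 95.6 over the 6 libraries. The median over all tested genes was 59.0, and the rest of these markers lay under it. Markers of other cells summed to far less than the mESC genes, and none was at 0 in all libraries. Their sums ranged from 287 to 323 in R1 and from 257 to 327 in HN for 6 neural genes, from 79.8 to 169 and from 156 to 262 for 5 mesoderm genes, from 36.2 to 159 and from 38.3 to 142 for 6 primitive endoderm genes, and from 36.99 to 104 and from 12.1 to 68.2 for 6 fibroblast genes. Without a block, 0 of these markers had an adjusted p under 0.05 in limma. With the collection date as a block, 4 mESC genes passed with higher levels in HN (Nanog, Esrrb, Klf4 and Dppa5a) and Zfp42 with lower levels. The neural gene Tubb3 and the fibroblast gene Thy1 also passed lower, and Olig2, T and Eomes higher. Over all tested genes, 5.46% passed higher and 4.02% lower with this block. DESeq2 with the block did not pass Dppa5a, Olig2 and T (adjusted p = 0.0560, 0.0540 and 0.0742). The part of these genes' cells in the autophagy results was not tested, and in bulk RNA fewer cells of a type and less RNA per cell cannot be told apart.

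The comparison of HN with R1 asks whether loss of Htt goes with another level of the autophagy genes. None of the 37 passed the test between the lines. Limma without a block gave 0 members with an adjusted p under 0.05 and also 0 with an unadjusted p under 0.05, and the lowest adjusted p was 0.901 (Atg7). Over all tested genes, 0.119% passed with higher levels in HN and 0.126% with lower levels, and 5.91% had an unadjusted p under 0.05 in either direction. On recovered reads without a block, edgeR and DESeq2 also passed 0 members, against 0.238% and 0.778% of all tested genes. The 95% interval of the log2 fold change lay within 1 of 0 for 27 of 37 members, against 55% of all tested genes, so that for the remaining members a difference of 1 on the log2 scale could not be told from 0 with these libraries. With the collection date as a block it lay within 1 of 0 for 34 members (71.2% of all tested genes) and within 0.5 for 16 members (33.3%). The members lay above most tested genes in level, and these shares were not matched for level.

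With the collection date as a block, which takes out what libraries of the same date shared, 3 members passed and all 3 were higher in HN. These were Ambra1, Sqstm1 and Wdfy3, or 8.11% of the members against 5.46% of all tested genes that passed with higher levels in HN. Of the members, 0 passed with lower levels in HN, against 4.02% of all tested genes, and 4 members (Atg7, Gabarapl2, Map1lc3b and Ulk2) had an unadjusted p under 0.05 in that direction, or 10.8% against 10.4%. Including the 3 that passed, 6 members (Ambra1, Atg12, Atg4d, Nbr1, Sqstm1 and Wdfy3) had an unadjusted p under 0.05 with higher levels in HN, or 16.2% against 11.2%. No member changed by more than 1 on the log2 scale with an adjusted p under 0.05, against 1.95% of all tested genes. EdgeR with the same block passed the same 3 members, with 6.44% of all tested genes passing higher and 4.8% passing lower in HN, and DESeq2 with the block passed 0 members, with 2.34% and 1.25%.

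**Figure D1:**
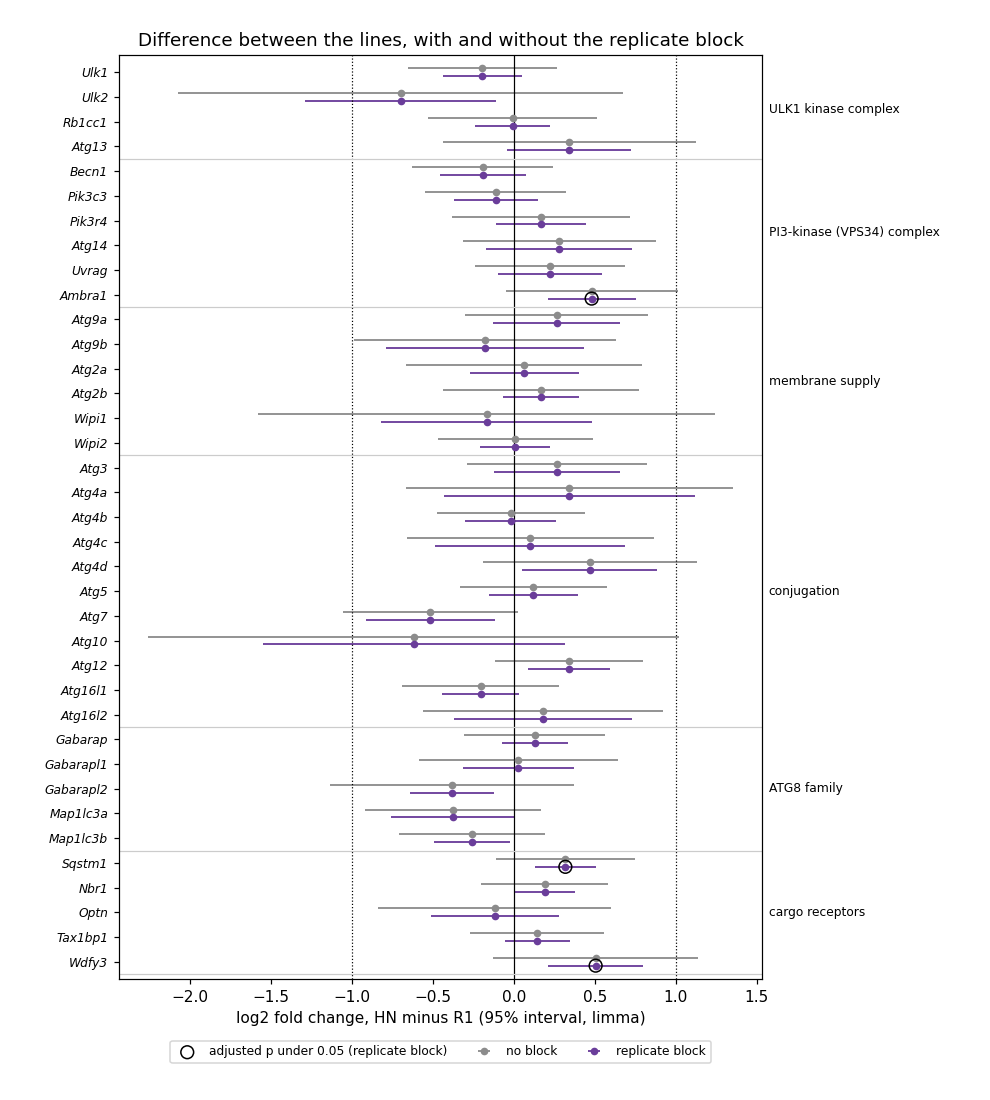
Log2 fold change (HN minus R1) of the 37 autophagy genes with 95% intervals from limma, in grey without a block and in purple with the collection date as a block, ordered by role, with dotted lines at 1 and -1. All grey intervals include 0, and the 3 circled genes (Ambra1, Sqstm1 and Wdfy3) passed with the block only.

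Values below are normalized counts, always given in the order of replicates 1, 2 and 3. Fold changes are on the scale of log2(normalized count + 1), as HN minus R1, and understate the change of low genes.

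Among the cargo receptors, 2 of 5 passed with the block. Sqstm1 encodes p62, which binds ubiquitin, gathers cargo into clusters and is itself degraded with it, and the gene lies on chromosome 11 from 50199366 to 50210827 on the minus strand (GRCm38). It stood at 648, 559 and 762 in R1 and at 891, 679.8 and 884 in HN, higher in HN on each of the 3 dates although the lines overlap. Its log2 fold change was 0.32 (SE 0.20, adjusted p = 1.0 without a block, SE 0.09, adjusted p = 0.0242 with it). The differences within the 3 dates were 0.46, 0.28 and 0.21. In the blocked comparison, its adjusted p was 0.1603 without the pair of replicate 1, 0.267 without that of replicate 2 and 0.00491 without that of replicate 3. Of the 50-base stretches of its transcripts, 15.5% also occur in transcripts of the neighbouring gene Mrnip, and the deposited counts were made without a stated use of strand.

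Wdfy3 encodes ALFY, a very large protein that brings protein aggregates to the ATG5 complex, and lies on chromosome 5 from 101832956 to 102069921 on the minus strand. It stood at 91.6, 149 and 94.3 in R1 and at 168, 209.8 and 105 in HN. The lines overlap, since HN replicate 3 lay under R1 replicate 2, but HN was higher on each date, by 0.87, 0.49 and 0.15. The log2 fold change was 0.51 (SE 0.29, adjusted p = 1.0 without a block, SE 0.14, adjusted p = 0.0199 with it). Without the pair of replicate 1 it was 0.32 (adjusted p = 0.252), without that of replicate 2 it was 0.51 (adjusted p = 0.205) and without that of replicate 3 it was 0.68 (adjusted p = 0.000374), all with the block.

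The other 3 receptors did not pass with or without the block. Nbr1, a relative of p62 that can take its place in binding cargo, had the highest level of the members in every library but HN replicate 1, where Sqstm1 was higher, at 730.3, 706 and 855 in R1 and 865, 785 and 966 in HN. Its differences within dates were 0.24, 0.15 and 0.18, all higher in HN (adjusted p = 0.211 with the block). Tax1bp1, a receptor that also acts in innate immune signalling, stood at 426, 505 and 385 in R1 and at 482, 541 and 431 in HN. It too was higher in HN on every date, with an interval from -0.05 to 0.35 with the block. Optn, whose product optineurin acts in the removal of damaged mitochondria, stood at 76.6, 52.5 and 44.5 in R1 and at 81.5, 37.6 and 45.5 in HN, with no common direction.

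**Figure D2:**
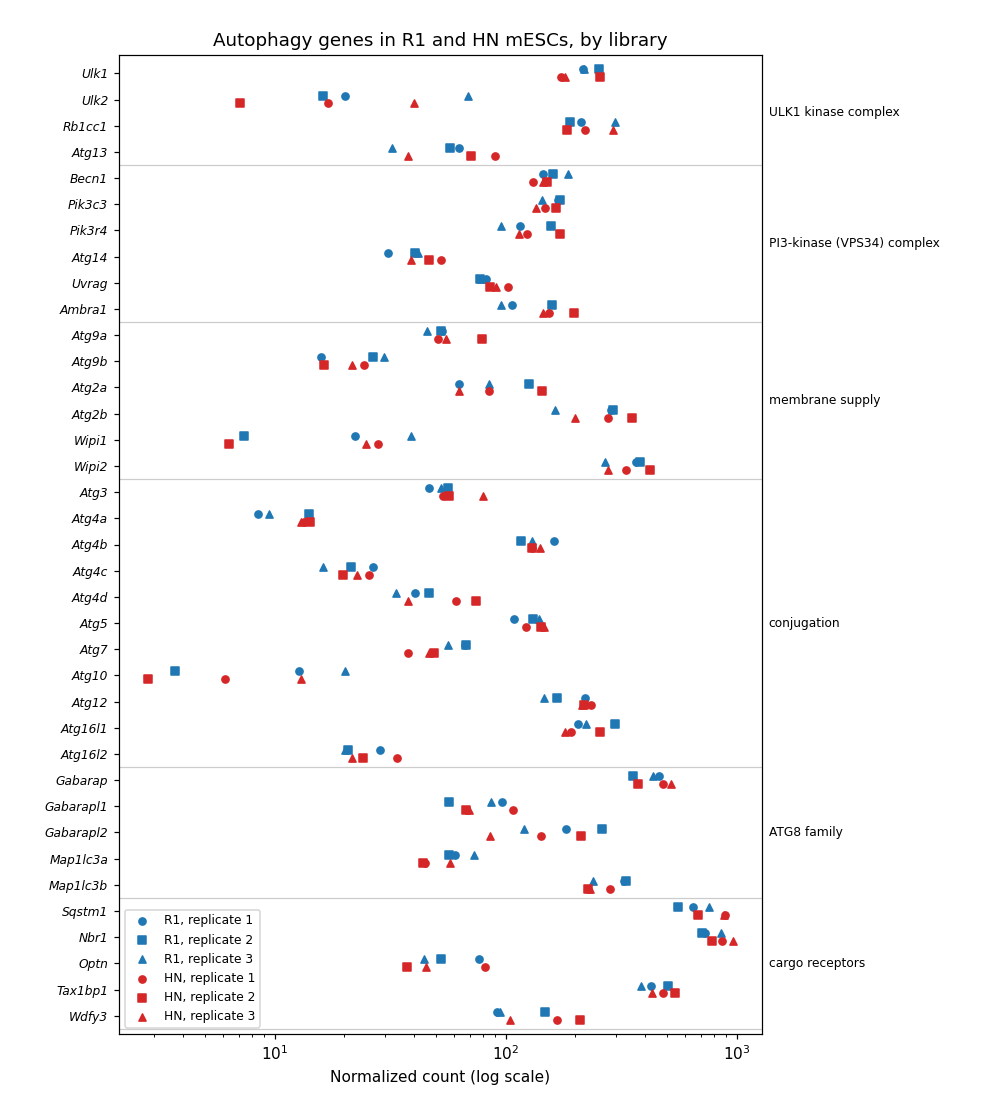
Normalized counts (log scale) of the 37 autophagy genes in each library, with R1 in blue and HN in red and 1 marker shape per collection date. Points of the same shape often sit near each other, and the lines are apart for Uvrag (higher in HN) and Atg7 (lower in HN) only.

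In the VPS34 complex, which makes the lipid phosphatidylinositol 3-phosphate on the growing membrane, Ambra1 passed with the block and the other 5 genes did not. Ambra1 encodes an activator of Beclin 1 that also promotes the ubiquitination of ULK1, and lies on chromosome 2 from 91730134 to 91918849 on the plus strand. It stood at 106, 159 and 95.7 in R1 and at 155, 198 and 145 in HN. The lines overlap, since R1 replicate 2 lay above HN replicates 1 and 3, but HN was higher on each date, by 0.53, 0.31 and 0.60. The log2 fold change was 0.48 (SE 0.24, adjusted p = 0.947 without a block, SE 0.13, adjusted p = 0.0168 with it). With the block and 1 pair left out, it ranged from 0.42 to 0.56 with adjusted p of 0.0516, 0.111 and 0.0530 without the pairs of replicates 1, 2 and 3, so that no set of 2 dates passed.

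Uvrag, a subunit of the form of the complex that acts on endosomes, was higher in HN with no overlap of the lines, at 82.0, 77.7 and 78.2 in R1 and 102, 85.8 and 91.0 in HN, with a log2 fold change of 0.22 (SE 0.16, adjusted p = 0.455 with the block). Lines without overlap were seen for 2 of 37 members (5.41%), against 10.8% of all tested genes. Atg14, the subunit that directs the complex to sites of autophagosome formation, stood at 30.9, 40.7 and 41.8 in R1 and at 52.3, 46.8 and 39.0 in HN. Its log2 fold change was 0.28, and 0.03 relative to the median of its chromosome 14.

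The core of the complex had small differences in both directions. Becn1, which encodes Beclin 1, stood at 145, 161 and 186 in R1 and at 131, 152 and 145 in HN. Pik3c3, the catalytic subunit VPS34, stood at 169, 172 and 144 in R1 and at 148, 166 and 135 in HN. Both were lower in HN on every date, by at most 0.36 and 0.19 on the log2 scale, and both intervals with the block lay within 0.5 of 0. Pik3r4, the regulatory subunit VPS15, was higher in HN on every date, at 115, 158 and 95.7 in R1 and 124, 173 and 115 in HN. For Becn1, 36.8% of the 50-base stretches also occur in transcripts of other genes, Cntd1 among them.

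In the ULK1 kinase complex, 0 of 4 genes passed with or without the block. Ulk1, the kinase that starts autophagosome formation, stood at 217, 254 and 219.7 in R1 and at 174, 257 and 181 in HN. Ulk2, its paralogue, stood at 20.2, 16.3 and 68.7 in R1 and at 17.0, 7.09 and 40.1 in HN. Ulk2 was lower in HN on every date, with the most negative log2 fold change of the members, -0.70 (SE 0.63 without a block, SE 0.29, adjusted p = 0.136 with it). The spread between dates exceeded that between the lines, and 153 reads in all 6 libraries lay behind these values. Rb1cc1, which encodes the scaffold FIP200, stood at 213, 190.1 and 298 in R1 and at 220.2, 184 and 292 in HN, and its interval with the block ran from -0.24 to 0.23. Atg13, which joins FIP200 to the kinase, stood at 62.8, 57.7 and 32.3 in R1 and at 90.04, 70.9 and 37.9 in HN, higher in HN on each date (log2 fold change 0.34, SE 0.19, adjusted p = 0.302 with the block).

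The 6 genes of membrane supply gave 0 that passed. Atg9a, whose product is carried in the vesicles that seed the membrane, stood at 53.2, 52.5 and 45.8 in R1 and at 51.1, 79.4 and 55.2 in HN. Its paralogue Atg9b stood at 16.0, 26.6 and 29.7 in R1 and at 24.3, 16.3 and 21.7 in HN. Neither had a common direction over the dates, and 30.5% of the 50-base stretches of Atg9a occur in transcripts of other genes. Atg2a, a lipid transfer protein gene, stood at 62.8, 126 and 84.9 in R1 and at 85.2, 144 and 62.8 in HN. Atg2b, its paralogue, stood at 287, 293 and 163 in R1 and at 279, 352 and 199 in HN. For both, replicate 2 was the highest of each line. Wipi1 and Wipi2 encode proteins that bind the lipid made by VPS34. Wipi1 stood at 22.4, 7.40 and 39.1 in R1 and at 28.0, 6.38 and 24.9 in HN. Wipi2 stood at 366, 382 and 271 in R1 and at 331, 420.3 and 277 in HN. The interval of Wipi2 with the block ran from -0.21 to 0.23, while that of Wipi1 ran from -0.82 to 0.48.

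Of the 11 conjugation genes 0 passed, and Atg7 had the lowest adjusted p of all members without a block. Atg7 encodes the E1-like enzyme that activates ATG8 proteins and ATG12, and lies on chromosome 6 from 114643097 to 114860614 on the plus strand. It stood at 67.1, 67.3 and 56.6 in R1 and at 37.7, 48.9 and 46.6 in HN. It was lower in HN in each library, with differences within dates of -0.81, -0.45 and -0.28 and a log2 fold change of -0.51 (SE 0.25, adjusted p = 0.901 without a block, SE 0.19, adjusted p = 0.0944 with it). With the block it passed without the pair of replicate 3 (-0.63, adjusted p = 0.0485).

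The E2-like enzymes differed in direction. Atg3, which passes ATG8 proteins to lipid, stood at 46.8, 56.2 and 52.6 in R1 and at 53.5, 56.7 and 80.1 in HN. Atg10, which passes ATG12 to ATG5, was the lowest member, at 12.8, 3.70 and 20.2 in R1 and 6.08, 2.84 and 13.0 in HN. Atg10 was lower in HN on every date, but with 53 reads in all 6 libraries its interval ran from -1.55 to 0.31 with the block. Atg12, the ubiquitin-like protein gene, stood at 220.4, 166 and 147 in R1 and at 234, 219 and 214 in HN. Its log2 fold change was 0.34 (SE 0.12, adjusted p = 0.0788 with the block), and it passed with the block without the pair of replicate 1 (adjusted p = 0.0235) and with median centring (adjusted p = 0.0478). Atg5, the partner to which ATG12 is joined, stood at 109, 132 and 140.2 in R1 and at 122.9, 142 and 147 in HN. Its differences within dates, 0.18, 0.11 and 0.07, were all higher in HN. Atg16l1, which recruits that pair to the membrane, was lower on every date, at 207, 298 and 222 in R1 and 192, 257 and 181 in HN. Its paralogue Atg16l2 stood at 28.7, 20.7 and 20.2 in R1 and at 34.1, 24.1 and 21.7 in HN.

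The 4 ATG4 proteases trim ATG8 proteins before conjugation and release them later. Atg4d stood at 40.5, 46.6 and 33.7 in R1 and at 60.8, 74.4 and 37.9 in HN, higher on each date (log2 fold change 0.47, SE 0.20, adjusted p = 0.163 with the block), and 14.6% of its 50-base stretches occur in transcripts of Kri1. Atg4b stood at 163, 116 and 131 in R1 and at 130.2, 129.7 and 141 in HN. Atg4b went in different directions over the dates, and its interval with the block ran from -0.30 to 0.26. Atg4a stood at 8.52, 14.1 and 9.43 in R1 and at 13.4, 14.2 and 13.0 in HN, and its values are uncertain because 51.2% of its 50-base stretches occur in other transcripts, those of the pseudogene Atg4a-ps among them. Atg4c stood at 26.6, 21.5 and 16.2 in R1 and at 25.6, 19.8 and 22.7 in HN.

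Of the 5 ATG8 genes 0 passed, and 3 were lower in HN on every date. Gabarapl2 stood at 183, 262 and 120.0 in R1 and at 142, 213 and 85.6 in HN, with differences within dates of -0.36, -0.30 and -0.48 (log2 fold change -0.38, SE 0.13, adjusted p = 0.0544 with the block). It passed with the block where only genes with a mean of at least 50 were tested (adjusted p = 0.0401) and with quantile normalization (adjusted p = 0.0399). Map1lc3b, which encodes LC3B, the protein most used to follow autophagosomes, stood at 327, 334 and 239 in R1 and at 285, 228 and 233 in HN (log2 fold change -0.26, SE 0.12, adjusted p = 0.176 with the block). With the block it passed without the pair of replicate 3 (adjusted p = 0.0329). Map1lc3a, which encodes LC3A, stood at 60.7, 57.0 and 72.8 in R1 and at 45.0, 43.9 and 57.4 in HN (log2 fold change -0.38, SE 0.19, adjusted p = 0.241 with the block). Gabarap, the gene of the founding member of the other branch of the family, stood at 462, 357 and 434 in R1 and at 482, 374 and 521 in HN, higher on every date by 0.06, 0.06 and 0.26. Gabarapl1 stood at 96.9, 57.0 and 86.3 in R1 and at 108, 67.3 and 69.3 in HN, with no common direction. Of the 50-base stretches of Gabarapl1 and Gabarapl2, 23.1% and 12.2% occur in transcripts of other genes.

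Gabarapl2 and Map1lc3b both lie on chromosome 8, from 111940703 to 111953612 and from 121590361 to 121598760, where the median log2 fold change of all 752 tested genes was -0.22. Relative to that median, Gabarapl2 differed by -0.16 (adjusted p = 0.533 with the block) and Map1lc3b by -0.04 (adjusted p = 0.908 with the block). The median of chromosome 14, the chromosome of Atg14, was 0.25 over 481 genes, and those of all other chromosomes lay between -0.08 and 0.09. Ambra1, Wdfy3 and Sqstm1 lie on chromosomes with medians near 0 and passed with the block relative to them as well, with adjusted p of 0.0196, 0.0159 and 0.0390.

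**Figure D3:**
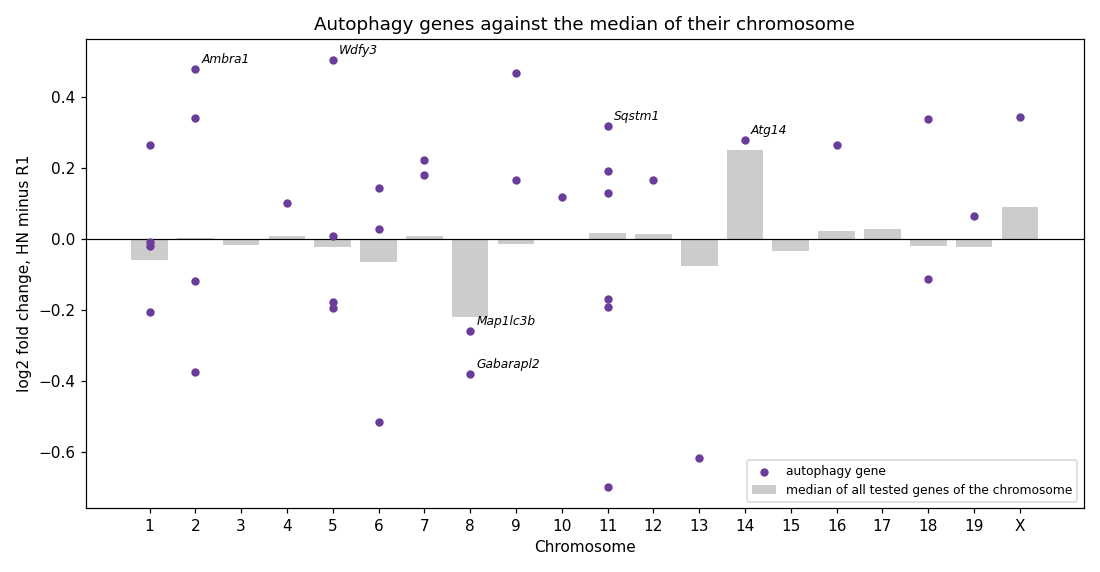
Log2 fold change (HN minus R1) of each autophagy gene as a purple point over its chromosome, with the median of all tested genes of that chromosome as a grey bar. Map1lc3b and Gabarapl2 on chromosome 8 and Atg14 on chromosome 14 lie in the direction of their chromosome's median, while the bars under Ambra1, Wdfy3 and Sqstm1 are near 0.

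As a group, the members leaned slightly to higher levels in HN. Their median log2 fold change was 0.10 against -0.01 over all tested genes, and 22 of 37 lay above 0 (59.5% against 48.5%). Their median absolute log2 fold change was 0.19 against 0.22 over all tested genes. The comparisons with all tested genes in this paragraph were not matched for level. A mean of at least 50 was held by 75.7% of members against 53.6% of all tested genes. The direction was the same on all 3 dates for 24 members, 64.9% against 41.5% of all tested genes. Of these, 15 were higher in HN (40.5% against 20.3%) and 9 lower (24.3% against 21.1%). By role, the medians were 0.20 in the VPS34 complex, 0.19 for the cargo receptors, 0.12 for the conjugation genes, 0.04 for membrane supply, -0.10 for the ULK1 complex and -0.26 for the ATG8 genes. The summed level of all 37 was 6001, 6153 and 5835 in R1 and 6472, 6525 and 6179 in HN, which do not overlap and were not tested. Without Sqstm1 and Nbr1, which carry the most counts, the sums were 4622, 4888 and 4219 in R1 and 4716, 5060.3 and 4329 in HN, and the lines overlapped.

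Per kilobase of annotated exon, which allows levels of different genes to be compared, Gabarap and Sqstm1 were the highest members. Gabarap had 227 normalized counts per kilobase in R1 (range 194 to 251) and 249 in HN (203 to 283), and Sqstm1 had 196 in R1 (166 to 227) and 244 in HN (203 to 265). Those 2 overlapped within each line. Nbr1 came next with 111 in R1 and 127 in HN, under the lowest library of Sqstm1 in both lines. Gabarapl2 followed with 81.0 and 63.2, overlapping Nbr1 in R1 but not in HN, and among the ATG8 genes Map1lc3a (53.7 and 41.3), Map1lc3b (39.9 and 33.1) and Gabarapl1 (39.8 and 40.6) came after it. The ranges of Gabarapl2 and Map1lc3a overlapped in both lines, as did those of Map1lc3b and Gabarapl1. Map1lc3a lay above Map1lc3b and Gabarapl1 in every R1 library but overlapped both in HN. Wdfy3, whose annotated exons span 15346 bases, had 7.27 and 10.5, and Ambra1 19.7 and 27.1. At the lower end stood Atg16l2 with 2.74 and 3.14. The length is that of all annotated exons merged, so a gene read mainly as a short transcript is understated.

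More members differed by collection date than between the lines, and the same held over all tested genes. In limma's test of date with the line in the model, 19 of 37 members passed (51.4%), against 46% of all tested genes. They included all 4 genes of the ULK1 complex, 4 of 6 of membrane supply, 4 of 5 cargo receptors, 3 of 5 ATG8 genes, 2 of 6 of the VPS34 complex and 2 of 11 conjugation genes. Wipi1 had means of 25.2, 6.89 and 32 over the 2 lines on the 3 dates, in order (adjusted p = 0.000202). Ulk2 (18.6, 11.7 and 54.4) and Atg10 (9.43, 3.27 and 16.6) also were lowest on the second date. Gabarapl2 took the opposite course, with means of 163, 237 and 103, as did Atg2a with 74.0, 135 and 73.9. Atg13 (76.4, 64.3 and 35.1) and Atg2b (283, 322 and 181) were lowest on the third date, and Optn (79.1, 45.0 and 45.0) was highest on the first. The 3 genes that passed between the lines with the block also passed for date, with adjusted p of 0.0096 for Ambra1, 0.00138 for Wdfy3 and 0.0103 for Sqstm1. Ambra1 and Wdfy3 were highest on the second date, with means of 178 and 179, and Sqstm1 was lowest there, with 619. Depth moved with date, since the second date had the 2 libraries with the most reads (3604420 and 3866717). Marker levels moved with date as well. The 8 mESC genes summed to 12129 in R1 and 12845 in HN on the third date, the lowest of each line. The 6 primitive endoderm genes summed to 159 in R1 and 142 in HN on that date, the highest of each line. The part of depth and of these marker levels in the differences was not tested.

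**Figure D4:**
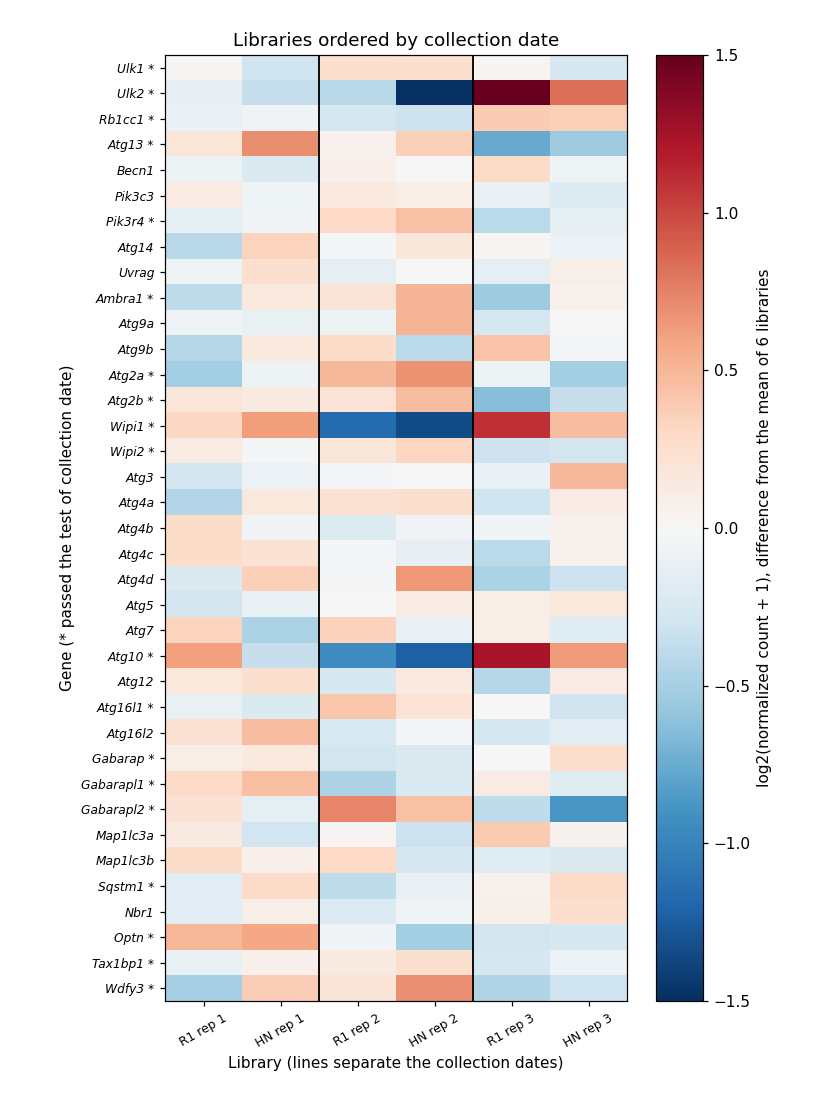
Difference of log2(normalized count + 1) from the mean of the 6 libraries for each autophagy gene, with libraries ordered by collection date and a star at the 19 genes that passed the test of date. Libraries of the same date share a colour in most starred rows, and Wipi1, Ulk2 and Atg10 are blue on the second date and red in both libraries of the third.

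Around the 37 members, a list of 60 other genes of the pathway was examined in the same comparison, and all 60 were tested. Without a block 0 passed in limma, against 0.119% of all tested genes higher and 0.126% lower in HN, and 0 in edgeR and DESeq2. In limma without a block, 1 had an unadjusted p under 0.05 (1.67% against 5.91% of all tested genes). With the block 2 were higher and 3 were lower in HN. These are 3.33% and 5% of the list, near the 5.46% and 4.02% of all tested genes. The list's median log2 fold change was -0.02 and its median absolute value 0.15. Of its 12 other core factors, 8 other cargo receptors, 17 upstream kinases and their partners, 8 transcription factors and 15 genes of fusion with lysosomes, each group held 1 gene that passed with the block.

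Mitf, a transcription factor related to TFEB, the activator of lysosome and autophagy genes, had the largest difference, with 93.7, 57.7 and 94.3 in R1 and 52.3, 29.8 and 61.7 in HN. It was lower in HN on each date, with a log2 fold change of -0.79 (SE 0.32, adjusted p = 0.755 without a block, SE 0.18, adjusted p = 0.00338 with it). Tfeb itself averaged 134 ± 20.8 in R1 and 152 ± 29.4 in HN (SD, n = 3), and the third relative, Tfe3, averaged 104 ± 17.4 and 96.2 ± 19.9. Neither passed. Nfe2l2 (NRF2) and Atf4, stress factors known to act on Sqstm1, had log2 fold changes of 0.31 and 0.28. Neither passed in limma without a block or with it (adjusted p = 0.0717 and 0.0632 with it). DESeq2 with the block gave adjusted p of 0.365 and 0.239. Relative to the median of its chromosome, Atf4 did pass in limma with the block (adjusted p = 0.0377). Counting that one, Atf4 passed in 3 of the 13 settings with the block, and Nfe2l2 in 1. Their part in the level of Sqstm1 was not tested.

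Calcoco2, whose human counterpart encodes the cargo receptor NDP52, stood at 54.3, 73.2 and 197 in R1 and at 151, 130.4 and 166 in HN. It passed with the block (log2 fold change 0.68, SE 0.18, adjusted p = 0.0140) although replicate 3 went the other way, by -0.25, and of its 50-base stretches 10.2% occur elsewhere. Tsc2, a brake on mTORC1, the kinase complex that holds autophagy back, stood at 236, 277 and 142 in R1 and at 242, 383 and 229.6 in HN (0.40, SE 0.12, adjusted p = 0.0328 with the block). Mtor itself averaged 244 ± 40.4 in R1 and 242 ± 29.4 in HN, with a blocked interval from -0.26 to 0.24. Atg101, listed under an older name, is the ATG13 partner of the ULK1 complex and stood at 195, 198 and 162 in R1 and at 113, 189 and 109 in HN (-0.47, SE 0.14, adjusted p = 0.0249 with the block). Vamp8, a SNARE protein gene of the fusion of autophagosomes with lysosomes, stood at 60.7, 41.4 and 67.4 in R1 and at 46.2, 23.4 and 40.1 in HN (-0.64, SE 0.21, adjusted p = 0.0470 with the block). DESeq2 with the same block passed none of these 5 genes (adjusted p = 0.0954 for Mitf, 0.642 for Calcoco2, 0.239 for Tsc2, 0.264 for Atg101 and 0.376 for Vamp8). Each call also depended on the dates that entered the blocked comparison. Calcoco2 passed without the pair of replicate 3 (1.14, adjusted p = 4.0e-08) but not without that of replicate 1 (0.29, adjusted p = 0.325) or 2 (adjusted p = 0.0678). Mitf was lost without the pair of replicate 2 (adjusted p = 0.0778) and Atg101 without that of replicate 1 (-0.31, adjusted p = 0.236). Tsc2 was lost without the pair of replicate 2 (adjusted p = 0.347) or 3 (0.25, adjusted p = 0.224), and so was Vamp8 (adjusted p = 0.363 and 0.127). Tsc2 and Vamp8 did not pass relative to the median of their chromosome (adjusted p = 0.0569 and 0.0825).

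Promoters were read from RefSeq (GRCm38.p6) as the 250 bases before the annotated start, on the strand of the gene, for 34 starts of the 30 members that matched by symbol. The motifs searched, on both strands, were CACGTG, the longer TCACGTGA, which contains it, and TGACNNNGC. CACGTG is the core bound by the MITF and TFEB family and by other basic helix-loop-helix factors. TGACNNNGC is the core of the element bound by NRF2. CACGTG stood in 3 of 34 member promoters (Atg3, Atg5 and Atg7; 8.82%), against 6.02% of 32851 promoters in all. TCACGTGA stood in 1 (2.94% against 0.785%) and TGACNNNGC in 3 (Atg13, Ulk2 and 1 start of Tax1bp1; 8.82% against 10.2%). The promoters of Sqstm1 and Ambra1 are shown because these genes passed with the block. Wdfy3, which also passed with the block, was not among the 30 members matched, so no promoter of it was searched. The Atg3 promoter is shown because it holds 2 matches to CACGTG, 1 of them within TCACGTGA, which are in capitals.
Sqstm1: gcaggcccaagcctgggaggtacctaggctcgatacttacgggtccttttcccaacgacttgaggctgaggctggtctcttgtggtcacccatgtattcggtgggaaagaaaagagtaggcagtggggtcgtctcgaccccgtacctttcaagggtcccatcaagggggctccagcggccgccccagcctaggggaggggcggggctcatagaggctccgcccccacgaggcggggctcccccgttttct
Ambra1: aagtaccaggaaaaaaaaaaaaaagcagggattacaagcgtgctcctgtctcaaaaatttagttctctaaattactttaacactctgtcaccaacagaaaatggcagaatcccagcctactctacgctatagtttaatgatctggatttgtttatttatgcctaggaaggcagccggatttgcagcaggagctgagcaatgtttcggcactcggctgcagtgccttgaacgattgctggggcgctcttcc
Atg3: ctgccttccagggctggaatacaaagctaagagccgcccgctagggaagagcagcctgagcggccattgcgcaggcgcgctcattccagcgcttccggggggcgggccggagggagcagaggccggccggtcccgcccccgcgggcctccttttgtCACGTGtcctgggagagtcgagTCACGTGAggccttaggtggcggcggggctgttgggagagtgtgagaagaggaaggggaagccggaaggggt
They lie at chr11:50210821-50211070 (minus strand), chr2:91729888-91730137 (plus strand) and chr16:45158579-45158828 (plus strand). None of these motifs stood in the windows of Sqstm1 and Ambra1, which says only that these letters are not in these 250 bases. Atg3, which holds the capitals, had a log2 fold change of 0.27 (SE 0.19, adjusted p = 0.464 with the block). Atg5 had 0.12 (adjusted p = 0.683 with the block) and Atg7 had -0.51 (adjusted p = 0.0944 with the block). None of the 3 genes with CACGTG passed with or without the block, and the part of the motif in their levels was not tested.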

How the data were processed

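Per the paper's methods, STAR placed the reads on mm10/GRCm38, duplicates were taken out with Picard, HTSeq counted the reads that overlap exons, and DESeq2 scaled the libraries. Versions and annotation are not given in the sources used here. The deposited values are this normalized signal per gene, as the authors made it. They were whole multiples of 1 read in 100% of cases (tolerance 0.001 reads), so reads were recovered for depth and for count tests. Reads without molecular identifiers need not be independent molecules.

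Values were compared as log2(normalized count + 1) with limma 3.58.1 in R 4.3.3 (variance trend, two-sided, Benjamini-Hochberg adjustment over all 14276 genes with a mean of at least 5). A gene passed at an adjusted p under 0.05. edgeR 4.0.16, which passed 16 genes higher and 18 lower in HN, and DESeq2 1.42.0 were run on the recovered reads as alternatives, each also with a block.

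Replicates with the same number share a collection date in the labels, and the paper states that batches were collected on different dates. Deviations of same-date libraries from their line's mean correlated by 0.25, 0.69 and 0.77 over all tested genes for replicates 1, 2 and 3. R1 replicate 1 correlated more with HN replicate 2 (0.34) than with HN replicate 1 of its own date (0.25). Over the members alone, these values were -0.15 and 0.46. Over all tested genes the pairing is therefore less clear for replicate 1 than for replicates 2 and 3. The block pairs the libraries by date, and its value is printed where it changes a call. Replicates of a line differed by more than sampling noise (chi-square over degrees of freedom 4.76 to 10.02).

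The 37 members, the 60 other pathway genes and the marker lists were chosen with earlier results of these data known. All members are named, and of the other lists the genes that passed with or without the block, Htt and the mESC genes. Other genes (Tfeb, Tfe3, Mtor, Nfe2l2, Atf4, Olig2, T, Eomes, Tubb3 and Thy1) were named after their values were seen. Positions and shared stretches come from GENCODE M21, promoters from RefSeq. The study's other assays are not used here.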

Additional observations from a re-analysis of the deposited data

How the results depend on the processing

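Over 29 alternatives, 13 of them with a replicate block, 983 of 1055 values of the members kept their direction and their side of the threshold, and 31 went past it, all of these with the block. Without a block 0 members passed under any of 16 alternatives, and with it 7 passed under at least 1. Combinations of the block with pseudocounts, normalizations, a mean of at least 50 and no variance trend were chosen after seeing the data.

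Members passing higher in HN numbered 3 with the replicate block, with edgeR and the block, with chromosome centring and the block, and with the block and pseudocounts of 0.1 or 10 or a mean of at least 50. They numbered 4 with median centring, 2 with quantile normalization, and 1 and 2 with the pairs of replicate 1 and 3 left out, all with the block. Members passing lower numbered 1 with a mean of at least 50 or quantile normalization and 2 without the pair of replicate 3, all with the block. DESeq2 with the block, limma with the block but no variance trend, and the block without the pair of replicate 2 passed 0 members. For limma without the variance trend and for DESeq2 the cause was not tested.

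Other pathway genes passing higher numbered 2 with the block, also with chromosome centring, quantile normalization, a mean of at least 50 and both pseudocounts, 3 with edgeR, 4 with median centring, and 1 without the pair of replicate 1 or 3. Those passing lower numbered 3 with the block, with edgeR, median centring and a pseudocount of 0.1, 2 with chromosome centring, quantile normalization, a mean of at least 50, a pseudocount of 10 and without the pair of replicate 1, 1 without that of replicate 2 and 4 without that of replicate 3. DESeq2 with the block and limma with the block but no variance trend passed 0 in either direction, and the block without the pair of replicate 2 passed 0 higher. The 2 that passed higher with chromosome centring and the block were Calcoco2 and Atf4.

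Over all tested genes, 17 passed higher and 18 lower without a block. With the replicate block these were 780 and 574, and with the block 920 and 685 in edgeR, 334 and 179 in DESeq2, 726 and 473 with chromosome centring, 744 and 442 with a mean of at least 50, 952 and 618 with median centring, 719 and 646 with quantile normalization, 729 and 534 with a pseudocount of 0.1, 758 and 556 with a pseudocount of 10, and 0 and 0 without the variance trend. With the pairs of replicates 1, 2 and 3 left out in turn they were 731 and 396, 304 and 190, and 836 and 847. Without a block they were 68 and 43 in DESeq2, 30 higher with median centring, 27 higher with quantile normalization, and 0 and 0 without the variance trend, and without 1 library they ranged from 3 to 30 higher and from 4 to 26 lower.

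The log2 fold change reversed in sign for 12 members, none of which passed. Rb1cc1 turned to 0.052 with chromosome centring, with or without the block, 0.0011 in edgeR, 0.0065 with median centring, with or without the block, and 0.011 and 0.0019 with the block without the pairs of replicates 2 and 3. Wipi2 turned to -0.022 with quantile normalization, with or without the block, and to -0.056 and -0.0035 with the block without the pairs of replicates 2 and 3. Atg4b turned to 0.041 with chromosome centring, with or without the block. With the block and the pair of replicate 1 left out Atg4b turned to 0.13, Atg2a to -0.12 and Gabarapl1 to -0.037, without that of replicate 2 Atg9b turned to 0.071, Gabarapl1 to -0.076 and Optn to 0.060, and without that of replicate 3 Wipi1 turned to 0.063 and Atg4c to -0.082. Without 1 library and without a block, values ranged from -0.19 to 0.18 for Rb1cc1, from -0.0094 to 0.36 for Pik3r4, from -0.26 to 0.34 for Atg2a, from -0.11 to 0.38 for Atg2b, from -0.79 to 0.46 for Wipi1, from -0.15 to 0.15 for Wipi2, from -0.13 to 0.11 for Atg4b, from -0.077 to 0.27 for Atg4c, from -0.0048 to 0.34 for Atg16l2, from -0.20 to 0.18 for Gabarapl1 and from -0.44 to 0.11 for Optn. The number of members that differed by date was 19, and between 16 and 19 under 4 alternatives.

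The libraries hold 53 to 4984 reads of a member in all, and intervals are widest for Atg10, Wipi1, Ulk2 and Atg4a.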
